A study of Mus musculus with 16 samples.

Results

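The BTB zinc finger family was followed at the RNA level in 2 mouse lymphoid cell lines, with Zbtb17, the gene of the transcription factor Miz1, placed among its relatives. Members were chosen by symbol. They are every gene of the count files whose symbol is Zbtb followed by a digit, plus Bcl6, Bcl6b, Patz1, Hic1 and Hic2. The rule, set with earlier results of these data known, gave 46 of 38293 genes. Zbtb8os is a member by symbol only, since it is named for its place opposite Zbtb8a and encodes archease, a cofactor of the tRNA ligase, and not a BTB zinc finger protein.

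The lines were P6D4, from the SCID.adh murine thymic lymphoma and labelled as DN3, an early thymocyte stage, and 70Z/3, a lymphoblast line labelled as pre-B. The labels name no treatment, transgene or deletion for either line, and each lineage is represented by 1 cell line. RNA-Seq had 3 libraries per line, with 45481949 to 54815145 counts in genes, and Miz1 ChIP-Seq had 1 library per line. Of 10 thymocyte markers all 10 were higher in P6D4, and of 10 pre-B markers all 10 were lower. In P6D4, which is labelled DN3, Cd8a was nevertheless at 73.6 CPM. The labels do not say that the libraries of a line came from separate cultures, so p-values reflect only how far these libraries differ, possibly for technical reasons. Cell line and lineage coincide in this design, and their effects cannot be told apart.

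Proteins of this family carry a BTB domain at the amino end, through which they pair with each other and hold corepressors such as Ncor1 and Bcor, and a row of C2H2 zinc fingers that reads DNA. Most act as repressors. Several are known as switches of lymphocyte fate: Bcl6 in germinal centre B cells and pre-B cell survival, Zbtb7b (ThPOK) in the choice of the CD4 lineage, Zbtb16 (PLZF) in NKT and other innate-like lymphocytes, and Zbtb7a in the choice between B and T cells. Miz1 differs from most of them in that it can also activate genes, and it represses when bound by Myc. It is needed by early B and T cell progenitors to respond to IL-7.

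Promoter sequences of 3 members on chromosome 4 are shown, and their part in the levels below was not tested. They belong to Zbtb17, to Zbtb8a, which was almost absent from P6D4, and to its neighbour Zbtb8os, which was present in both lines. Each runs from 250 bases before to 50 bases after a RefSeq transcript start (GRCm38.p6), 5′ to 3′ on the gene's strand, and capitals mark CG dinucleotides. Zbtb17 lies on the plus strand (chr4:141444423-141444722, the first of 2 starts in the table), Zbtb8a on the minus strand (chr4:129377979-129378278) and Zbtb8os on the plus strand (chr4:129335718-129336017).
Zbtb17: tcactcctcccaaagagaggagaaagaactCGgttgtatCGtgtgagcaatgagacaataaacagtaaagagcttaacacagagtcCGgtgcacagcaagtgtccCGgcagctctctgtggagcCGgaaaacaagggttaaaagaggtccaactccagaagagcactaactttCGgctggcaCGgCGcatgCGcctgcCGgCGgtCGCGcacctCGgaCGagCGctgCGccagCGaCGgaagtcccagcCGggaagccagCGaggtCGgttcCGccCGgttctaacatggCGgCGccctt
Zbtb8a: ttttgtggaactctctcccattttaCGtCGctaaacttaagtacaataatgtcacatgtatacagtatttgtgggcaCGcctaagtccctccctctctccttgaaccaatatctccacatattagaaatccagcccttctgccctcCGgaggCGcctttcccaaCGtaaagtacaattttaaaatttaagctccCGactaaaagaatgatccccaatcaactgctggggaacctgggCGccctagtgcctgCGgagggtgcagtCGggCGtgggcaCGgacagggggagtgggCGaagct
Zbtb8os: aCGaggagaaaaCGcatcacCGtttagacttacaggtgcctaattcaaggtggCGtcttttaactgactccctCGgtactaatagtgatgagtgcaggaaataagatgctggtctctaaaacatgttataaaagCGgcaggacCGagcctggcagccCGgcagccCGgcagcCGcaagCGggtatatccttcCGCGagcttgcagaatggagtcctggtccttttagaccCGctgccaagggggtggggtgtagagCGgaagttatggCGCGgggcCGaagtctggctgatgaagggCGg
The Zbtb17 promoter held 26 CG dinucleotides, that of Zbtb8os 19 and that of Zbtb8a 13. Their ratios of observed to expected CG were 0.997, 0.852 and 0.689, against a median of 0.773 over the 56 promoters of the 40 members in the table and 0.384 over 32851 promoters of all genes. Family promoters were thus mostly richer in CG than the median promoter. Bcl6b, Zbtb7c, Zbtb10, Zbtb16, Zbtb40 and Zbtb48 had no promoter entry.

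Most of the family was expressed at similar levels in both lines, and a few members were nearly switched off in one of them. Levels are given as CPM, counts relative to the size of the library after TMM scaling, a normalisation that assumes most genes alike. Of the 46 members, 41 had enough counts to be tested with edgeR's quasi-likelihood test. At an adjusted p under 0.05 it called 18 higher in P6D4 and 18 lower and left 5 uncalled, so that 87.8% of the tested members were called. Over all 13750 genes tested, 86.5% were called, 43.3% as higher and 43.2% as lower, which puts the family near the background. The libraries of the lines did not overlap for 36 of the 41, and for 87.4% of all genes. Replicates were close, and 27 of the 36 called members were not past a 2-fold difference.

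Against a 2-fold difference (edgeR glmTreat), 2 members were higher in P6D4 and 7 lower. These 9 make up 22.0% of the tested members, against 35.2% of all genes tested (16.6% higher and 18.6% lower). The median size of the log2 fold change was 0.44 over the members and 0.67 over all genes tested, and the signed medians were 0.03 and 0.01. The members past 2-fold were Zbtb16 and Hic2 on the higher side and Zbtb10, Zbtb8a, Zbtb20, Zbtb4, Zbtb18, Zbtb32 and Bcl6 on the lower side.

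**Figure D1:**
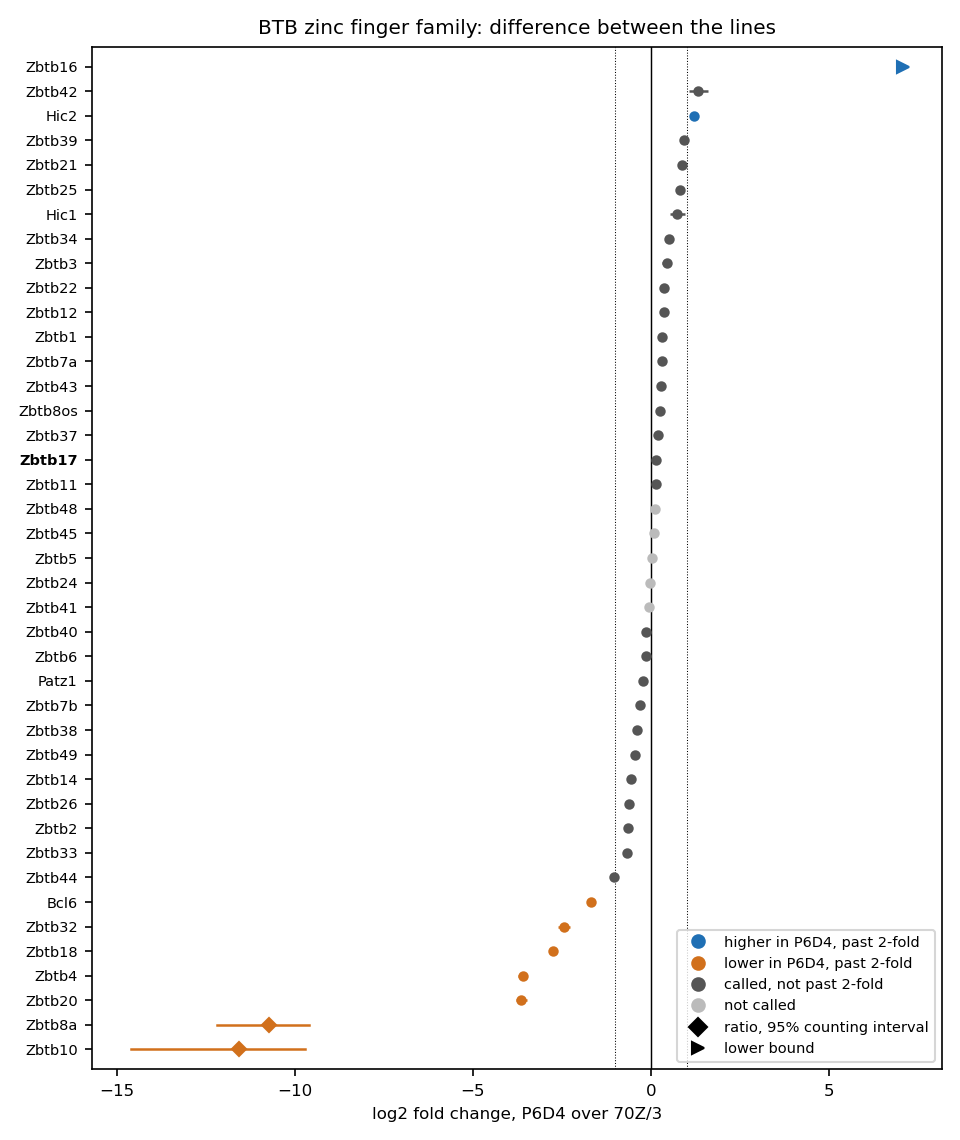
Difference between P6D4 and 70Z/3 for the 41 tested members, as log2 fold change on the x axis. Circles are edgeR fits with SE, diamonds are count ratios with 95% counting intervals, the triangle is a lower bound, and dotted lines mark 2-fold; blue and orange are higher and lower past 2-fold, dark grey called below it and light grey not called. Zbtb17, in bold, sits among the members closest to 0, while Zbtb10, Zbtb8a and Zbtb16 stand far out.

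Zbtb17 was among the members that differed least. Its libraries were at 44.4, 46.0 and 45.7 CPM in P6D4 and 41.3, 40.6 and 41.5 CPM in 70Z/3. The P6D4 libraries were thus all slightly higher and the groups did not overlap. The log2 fold change was 0.14 ± 0.04 (SE), a 1.10-fold difference (edgeR adjusted p = 0.00426). The median of the 833 genes tested on chromosome 4 was 0.05. By size of the difference it ranked 7 of 41 from the smallest: 6 members differed less and 34 more. Next to it in size were Zbtb11, an essential gene with a role in mitochondrial function, at 0.13 ± 0.03, and Zbtb40, of the opposite sign, at -0.14 ± 0.04. In the signed order, where it ranked 17 from the most raised, its neighbours were Zbtb11 and Zbtb37, the latter at 0.20 ± 0.06. Zbtb17 overlaps the end of Spen by 53 bp and the gene model Gm42337 by 4242 bp. The library kit marks strand, but the setting used in counting is not known, so reads from overlapping genes may not be told apart.

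Zbtb16, which encodes the innate lymphocyte factor PLZF, was found in P6D4 only. It had 505, 491 and 428 counts there, or 9.10, 9.32 and 8.78 CPM, and 0 counts in each of the 70Z/3 libraries. Against a floor of 3 counts per library this was at least 136-fold higher in P6D4 (edgeR adjusted p = 5.22e-12). Genes that mark NK and innate lymphoid cells were low in both lines: their 8 members summed to 3.88 to 5.22 CPM in P6D4 and 2.24 to 3.02 CPM in 70Z/3. Most of the P6D4 sum was Nkg7, a cytotoxic granule gene, at a mean of 4.11 CPM against 0.221 CPM, higher past 2-fold (edgeR glmTreat). Klrb1c went the other way, at 0.169 against 2.47 CPM. Eomes, Il23r, Gzmb and Klrk1 were at 0 in P6D4, Ncr1 and Prf1 were at 0.103 and 0.303 CPM, and the part of such cells in the level of Zbtb16 was not tested. Zbtb46, a marker of classical dendritic cells in the same family, had 2 counts in all in P6D4 and 3 in 70Z/3.

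Hic2, a paralog of the tumour suppressor Hic1, was the other member past 2-fold on this side. It was at 26.1, 28.6 and 30.3 CPM in P6D4 and 11.7, 12.7 and 12.3 CPM in 70Z/3. The groups lay far apart, with a log2 fold change of 1.21 ± 0.07 (SE; adjusted p against 2-fold 0.00228, edgeR glmTreat). Hic1 itself was low, at 1.10, 0.873 and 1.15 CPM against 0.532, 0.539 and 0.800 CPM, higher by 0.74 ± 0.21 (edgeR adjusted p = 0.0047) and not past 2-fold. Hic1 overlaps Smg6 by 3072 bp and Hic2 overlaps Tmem191c by 5826 bp, so their counts share the limit on strand given for Zbtb17.

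On the other side, Zbtb10 and Zbtb8a were at or near 0 in P6D4 and well expressed in 70Z/3. Zbtb10, a repressor known to hold down Sp transcription factors, had 1, 1 and 0 counts in P6D4 and 1892, 1853 and 1649 in 70Z/3. The ratio in favour of 70Z/3 was 3017, with a 95% counting interval of 835 to 24920. Zbtb8a had 4, 1 and 1 counts in P6D4 against 3333, 3009 and 2847, a ratio of 1713 (interval 787 to 4669). Both ratios cover counting error only. The mean levels of these genes in 70Z/3 were 38.4 ± 1.82 and 65.5 ± 4.72 CPM (SD, n = 3).

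Of the genes next to Zbtb8a and Zbtb10, Zbtb8os, Tpd52 and Zfp704 were expressed in both lines. Zbtb8os lies 3760 bp from Zbtb8a with no coding gene between, and was at 33.7, 33.7 and 29.4 CPM in P6D4 and 25.8, 28.4 and 27.7 CPM in 70Z/3. It was slightly higher in P6D4, by 0.24 ± 0.06 (SE; edgeR adjusted p = 0.00199), in contrast to Zbtb8a. Zbtb8b, 47736 bp away on the other side, was barely detected, with 11, 3 and 4 counts in P6D4 and 0, 1 and 0 in 70Z/3. The genes on both sides of Zbtb10 were also present in each line: Tpd52, 245173 bp away, was at 73.9 and 53.3 CPM in the respective lines, and Zfp704, 141676 bp away, at 138 and 107 CPM. Beside Zbtb16, Nnmt and Htr3a had almost no counts in either line. Over the 9 members past 2-fold there were 18 flanking coding genes. Of these, 10 were tested, 2 were past 2-fold in the member's direction, 1 in the other, and 7 were not past it. Over all genes tested, 35.2% were past 2-fold in either direction, so these counts are close to the background. Zbtb8os and Zbtb8b, among the 18, are themselves members by symbol.

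Zbtb20, Zbtb4, Zbtb18 and Zbtb32 were lower in P6D4 by 5.48-fold to 12.5-fold. Zbtb20, which supports the survival of plasma cells, was at 2.24, 2.07 and 1.97 CPM in P6D4 and 32.6, 23.8 and 22.0 CPM in 70Z/3. It varied more between the 70Z/3 libraries (CV 21.7%) than Bcl6 (5.01%), yet the log2 fold change of -3.64 ± 0.15 (SE) was far larger than this spread. Zbtb20 spans the gene Tigit, 8256 bp of overlap. Zbtb18, a repressor best known from neuronal differentiation, was at 55.1, 52.5 and 52.5 CPM in P6D4 and 374, 351 and 361 CPM in 70Z/3. Its log2 fold change was -2.76 ± 0.04, or -2.30 once the median of its chromosome 1, -0.46 over 787 genes tested, was subtracted. Zbtb32, a repressor of lymphocyte activation, was low in both lines, at 0.649, 1.06 and 0.657 CPM against 3.89, 4.58 and 4.55 CPM, a difference of -2.45 ± 0.17.

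Zbtb4 belongs with Zbtb33 (Kaiso) and Zbtb38 to the members known to bind methylated DNA, and all 3 were lower in P6D4. Zbtb4 was at 0.469, 0.493 and 0.513 CPM in P6D4 and 6.17, 5.66 and 6.13 CPM in 70Z/3, a difference of -3.60 ± 0.13 in log2 terms (SE; edgeR adjusted p = 6.97e-12). Zbtb33 was at 52.4, 53.1 and 56.3 CPM against 88.3, 85.9 and 83.6 CPM, a fall of 0.67 ± 0.04 in log2 terms that was not past 2-fold. Zbtb38 was at 37.8, 40.8 and 43.6 CPM against 56.7, 52.5 and 52.2 CPM, a difference of -0.40 ± 0.05. The libraries of the lines did not overlap for any of the 3. Of all genes tested, 43.2% were called lower and 87.4% did not overlap, and this trio was put together after its values were seen.

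Bcl6, the germinal centre repressor, was lower in the thymic line. Its libraries were at 9.73, 9.75 and 11.5 CPM in P6D4 and 34.7, 31.5 and 32.4 CPM in 70Z/3. Every 70Z/3 library was thus far above every P6D4 library. The difference was -1.67 ± 0.07 in log2 terms (SE; edgeR adjusted p = 3.08e-11, and 1.01e-07 against 2-fold). Bcl6b, its closest relative, had 1 count over all 6 libraries and was not tested.

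**Figure D2:**
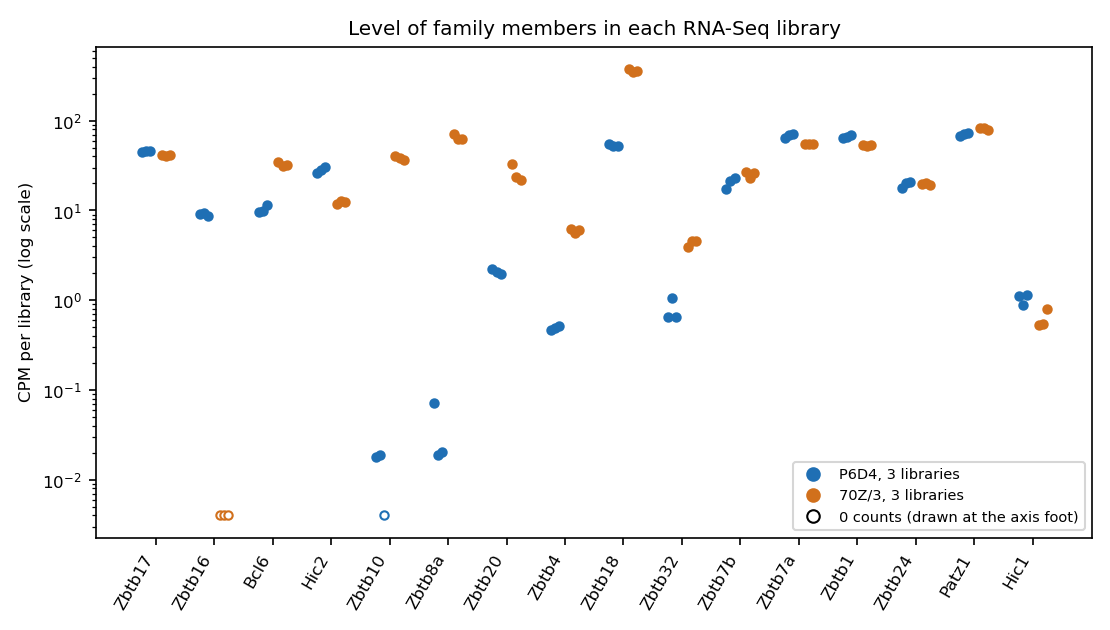
Level of 16 members in each of the 6 RNA-Seq libraries, in CPM on a log axis; blue points are the P6D4 libraries, orange the 70Z/3 libraries, and open points libraries with 0 counts. Zbtb17, Zbtb24 and Patz1 sit at nearly the same height in both lines, whereas Zbtb16, Zbtb10 and Zbtb8a drop to the foot of the axis in one of them.

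The other members with a known role in lymphocytes differed by little. Zbtb7b, the CD4 lineage factor, was at 17.4, 21.5 and 22.8 CPM in P6D4 and 26.6, 22.9 and 26.1 CPM in 70Z/3. The groups nearly touch, and the difference of -0.30 ± 0.09 (SE; edgeR adjusted p = 0.00687) became -0.19 ± 0.07 without P6D4 replicate 1 (adjusted p = 0.0187). Zbtb7a was at 64.5, 68.7 and 70.9 CPM against 54.9, 55.1 and 55.7 CPM, higher by 0.30 ± 0.04. Relative to chromosome 10, whose 631 tested genes had a median of 0.46, this is -0.16, and Zbtb7a was the only called member whose sign turned in this way. Zbtb1, required for lymphoid development, was at 63.5, 66.4 and 68.5 CPM against 53.8, 52.9 and 54.1 CPM, higher by 0.30 ± 0.04. Patz1, which represses Cd8 in early thymocytes, was at 66.9, 71.0 and 73.2 CPM against 83.5, 82.8 and 79.8 CPM, a difference of -0.22 ± 0.04. For each of these 4 genes all 3 libraries of one line exceeded all 3 of the other, by less than 2-fold. Such separation is common here, found for 87.4% of all genes tested. Zbtb24, mutated in a human immunodeficiency syndrome, was at 17.8, 20.1 and 20.6 CPM and at 19.6, 20.5 and 19.1 CPM, and the groups overlapped (-0.02 ± 0.06, edgeR adjusted p = 0.806).

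Of the remaining members, Zbtb39, Zbtb21 and Zbtb25 were higher in P6D4 by 0.92, 0.86 and 0.83 and Zbtb34 by 0.50 (log2, SE 0.04 to 0.07). Zbtb42 was low, at 0.849 and 0.333 CPM on average, and higher by 1.33 ± 0.27, not past 2-fold. Zbtb3, Zbtb22, Zbtb12, Zbtb43 and Zbtb37 were called higher by 0.44 down to 0.20. On the lower side, Zbtb44 fell from 149 ± 7.67 to 72.6 ± 0.941 CPM (SD, n = 3), a log2 fold change of -1.03 ± 0.04 that did not pass the test against 2-fold (adjusted p = 0.212, edgeR glmTreat). Zbtb2, a repressor in the p53 and p21 pathway, Zbtb26, Zbtb14 and Zbtb49 were lower by 0.64 down to 0.44. Zbtb6 was lower at -0.15. Besides Zbtb24, the members that were not called were Zbtb41 (-0.07), Zbtb5 (0.03), Zbtb45 (0.09) and Zbtb48 (0.10), a telomere-binding protein. Zbtb7c had no count in any library, and Zbtb9, with 15 and 17 counts in all in P6D4 and 70Z/3, was too low to test.

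Of 4 adjacent pairs of tested members, 3 had the same sign. Over all genes 43.3% were called higher and 43.2% lower, but these are shares of single genes and not of pairs. How often adjacent genes in general share a sign was not measured, so nothing is drawn from this count. On chromosome 2, Zbtb6 and Zbtb26, 1248 bp apart, were at -0.15 and -0.61, and Zbtb34 and Zbtb43, 18962 bp apart, were at 0.50 and 0.27. On chromosome 12, Zbtb1 and Zbtb25 lie on opposite strands with ends that overlap by 164 bp, and were at 0.30 and 0.83. Zbtb8os and Zbtb8a were the exception. The pairs were noted after their values were seen.

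The Miz1 ChIP-Seq asks where the Zbtb17 product sat on the genome, and with 1 library per line its peaks have no replicate check. The family genes were almost free of Miz1 peaks at their starts, Zbtb17 included. In P6D4, 0 of 46 members had a peak summit within 1 kb of a transcript start (or of either gene end for the 6 without a start in the table), against 0.941% of 21896 protein-coding genes. In 70Z/3, 1 of 46 did, or 2.17%, against 2.88% of all genes. With so low a background, counts of 0 and 1 among 46 genes are close to it. The 70Z/3 peak lay 988 bp downstream of the inner of 2 starts of Zbtb7b, at chr3:89386607-89386952, with a fold of 5.46 over background by the authors' caller and -log10 q of 4.50. It was weak for its list, in which 6.0% of the 10462 peaks had a lower fold, and the 21629 peaks of P6D4 held none that overlapped it. No member had overlapping peaks in both lists, which 0.635% of all genes had.

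The summit nearest to a start of Zbtb17 was 299 kb away in P6D4 and 143 kb away in 70Z/3. The median distance over the members was 189 kb in P6D4 and 107 kb in 70Z/3, against 107 and 109 kb over all protein-coding genes. Zbtb24 had summits 4.99 and 6.68 kb from its start, of fold 5.38 and 7.28. Zbtb7a had a summit 2.17 kb from its start in 70Z/3, of fold 6.06, and 3 summits within the gene, with none there in P6D4. Zbtb20 went the other way, with 3 summits within the gene in P6D4 and 1 in 70Z/3. It is a long gene (chr16:42875689-43634392), and the P6D4 list holds more peaks, 21629 against 10462. Among the summits nearest to each member, those of Hic1 had the highest fold in both lists, 53.8 in P6D4 and 111 in 70Z/3. They lay 20250 and 20256 bp away. After removal of duplicates the libraries held 2067731 tags in P6D4 and 4484034 in 70Z/3, so a missing peak means that none was called at this depth.

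**Figure D3:**
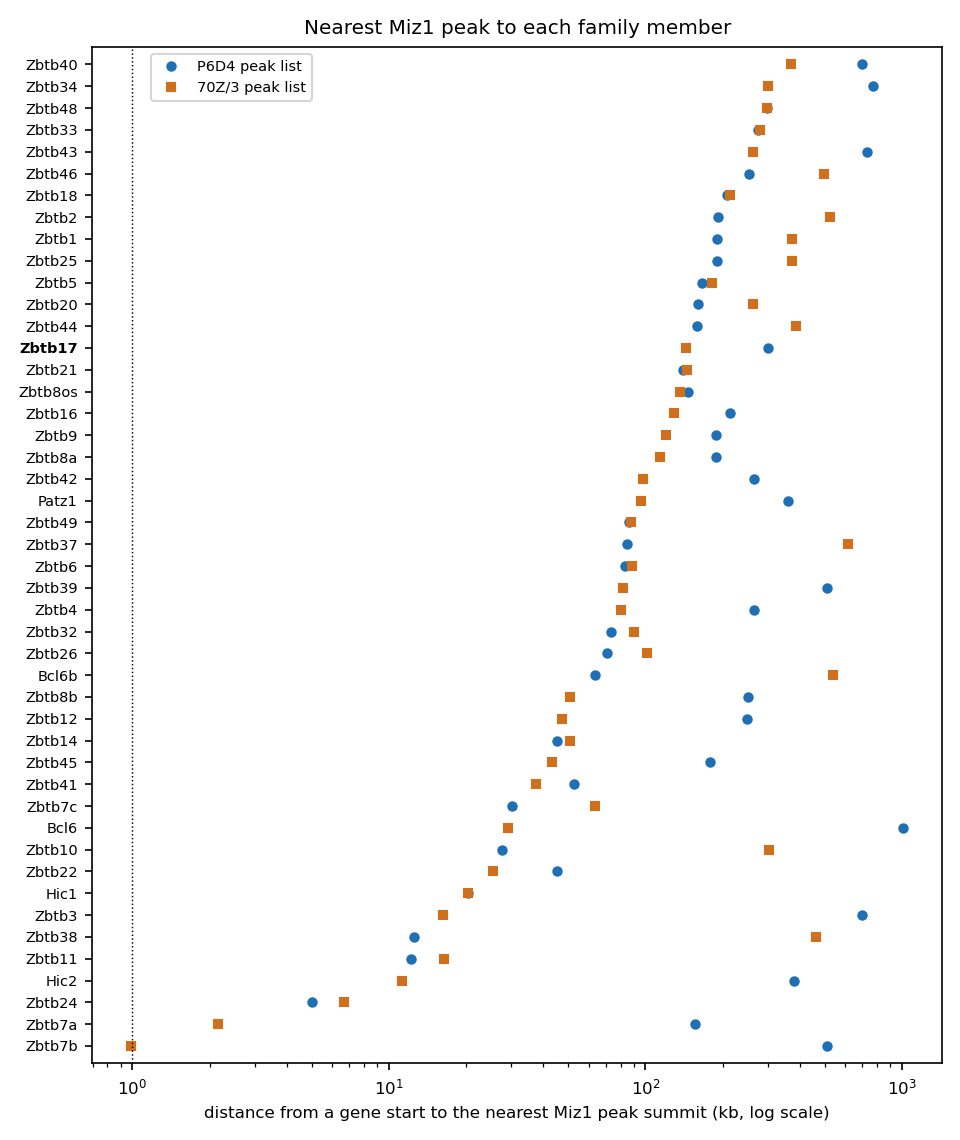
Distance in kb (log axis) from each of the 46 members to the nearest Miz1 peak summit, for the P6D4 list (circles) and the 70Z/3 list (squares); the dotted line marks 1 kb. Only Zbtb7b reaches the line, in the 70Z/3 list, and Zbtb17 lies at 299 and 143 kb.

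The promoters were searched on both strands for the letters ATCGAT and ATCGGTA, parts of motifs described for Miz1, and for CACGTG, the E-box of Myc and Max. Neither Miz1 string occurred in any of the 56 member promoters, against 0.925% and 0.362% of all 32851 promoters. With so low a background, counts of 0 among 56 promoters are close to it. CACGTG occurred in 7 of the 56, those of Bcl6, Zbtb11, Zbtb21, Zbtb24, Zbtb25 (both starts) and Zbtb49, or 12.5% against 7.15% of all promoters. CACGTG itself holds a CG, and member promoters had a higher median ratio of observed to expected CG (0.773 against 0.384). The part of base composition in these shares was not tested. The Miz1 strings begin with the same letters, and neither shares a site with CACGTG. The Zbtb17 promoter printed above held none of them.

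Lists of partner and target genes were described by their counts. They were drawn up from general knowledge of the family, with earlier results of these data known. Among 22 corepressors and other partners of the BTB domain, edgeR called 8 higher in P6D4 and 11 lower, with 3 uncalled. This is 86.4% called, against 86.5% of all genes. Their median was -0.12 on the log2 scale, against 0.01 over all genes tested. Ncor1 differed by -0.12 ± 0.03 (SE), Bcor by 0.19 ± 0.04 and Hdac3, the deacetylase that works with Ncor1, by 0.24 ± 0.04 (SE). Class IIa deacetylases, which bind Bcl6 and Zbtb16, went both ways, with Hdac7 higher by 1.85 ± 0.04 and Hdac5 lower by -4.52 ± 0.06. Hdac7 lies on chromosome 15, whose 482 genes tested had a median of 0.905. Bcorl1, a relative of Bcor, was higher by 1.76 ± 0.07. Ctbp2 was at 0 in every P6D4 library and averaged 0.592 CPM in the other line, at least 9.61-fold lower. Hdac2, Hdac4 and Mta3 were not called, at 0.02, 0.05 and -0.12.

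Of 13 partners and regulators of Miz1, Mycn was at 0 in each library, and of the 12 tested edgeR called 6 higher and 6 lower (median 0.03), an even split as over all genes (43.3% and 43.2%). Gfi1, a repressor that Miz1 recruits, was higher in P6D4, at 64.1 against 3.91 CPM, by 4.03 ± 0.08 (SE). Myc, the partner that turns Miz1 into a repressor, was higher by 1.84 ± 0.04 while Zbtb17 differed by 0.14. Myc lies on chromosome 15, whose 482 genes tested had a median of 0.905, so its rise is smaller relative to its chromosome. The others lay within 0.68 of 0 on the log2 scale, with Ywhah and Akt1 lowest at -0.68 and -0.64. Of 3 relatives that carry other symbols, Gzf1 was higher in P6D4, at 112 against 9.43 CPM, by 3.57 ± 0.09, and Mynn and Zfp131 were not called at -0.08 and 0.05.

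Of 16 genes known as targets of Bcl6, 15 were tested, and 12 were lower in P6D4 and 2 higher, while Atr (-0.06) was uncalled. Over all genes 43.2% were lower and 43.3% higher. The list's median was -2.93 on the log2 scale. P6D4 is the line with less Bcl6 RNA. Whether Bcl6 has a part in the levels of these genes was not tested, and cell line and lineage cannot be told apart here. The cyclin gene Ccnd2 had 2, 1 and 1 counts in P6D4 and was lower by a ratio of 3238 (95% counting interval 1264 to 11890). Cdkn2a was at 0 in P6D4, at least 230-fold lower. Id2 and the cell cycle inhibitor Cdkn1a were higher, by 2.80 ± 0.06 and 1.39 ± 0.09 (log2, SE). Prdm1, the plasma cell factor that Bcl6 represses, averaged 3.19 CPM against 6.83 CPM in the pre-B line, lower by -1.11 ± 0.14.

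Of 16 genes of the innate-like T cell programme that goes with Zbtb16, 14 were tested, with 7 higher in P6D4 and 6 lower (edgeR; median 0.43). This is 92.9% called, against 86.5% of all genes, and split about as evenly as the background. Rora was higher by a ratio of 2466 (95% counting interval 1251 to 5712; 0, 5 and 3 counts in 70Z/3) and the adaptor Sh2d1a (SAP) by 808.8 (276.5 to 3925; 0, 3 and 0 counts). Klrb1c was lower by -3.87 ± 0.26 (log2, SE). Egr3, which acts upstream of Zbtb16 in NKT cells, was at 0 in P6D4, at least 6.21-fold lower, and Icos was not called at 0.04. Il4 and Il18r1 had too few counts to test. The medians of these lists did not change when genes at 0 were set to their bounds. Their genes overlap lineage genes of T and B cells in general, so that a link to the family members was not tested.

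**Figure D4:**
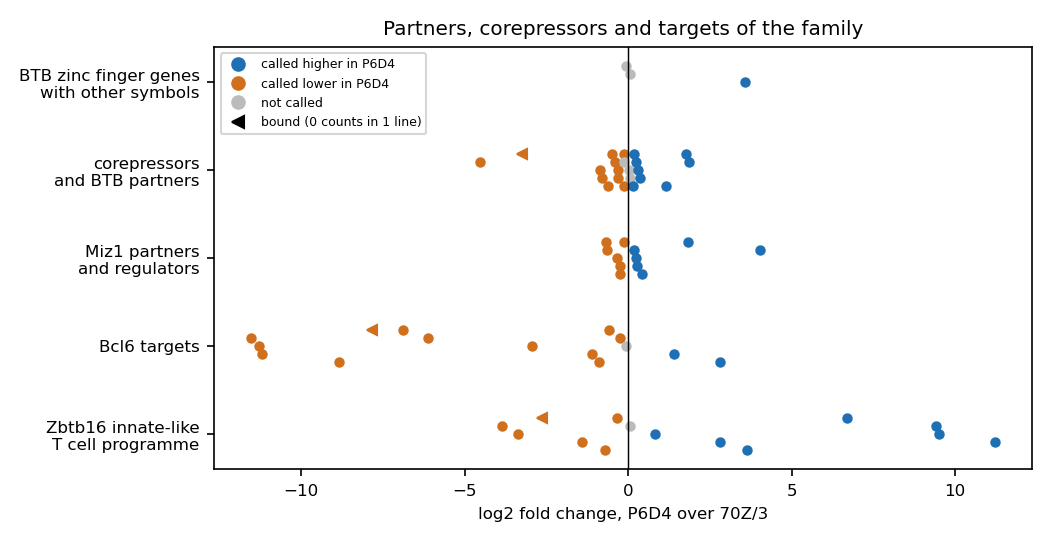
Log2 fold change of the tested genes of 5 lists, P6D4 over 70Z/3; each point is a gene, blue called higher, orange called lower and grey not called, and triangles are bounds for genes with 0 counts in one line. Most corepressors and Miz1 partners lie near 0, with Hdac5 and Gfi1 farthest out, whereas Bcl6 targets and the innate-like programme spread widely.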

How the data were processed

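RNA-Seq of 6 libraries and Miz1 ChIP-Seq of 2 were used; the other 8 samples (histone marks and inputs) are not analysed here. For RNA the authors deposited raw counts of reads for each Ensembl gene ID. The submitters' processing notes name TopHat2 2.0.10, Bowtie2 2.10, HTSeq, SAMtools and bedtools, and the builds mm10 and GRCm38. Which strand setting HTSeq was given is not stated in the sources used here. Reads outside genes were 14.5 to 16.0% and ambiguous reads 0.382 to 0.424% of reads aligned once; the HTSeq summary lines were left out. Symbols matched 36345 of 38293 genes. Peaks were called by the authors with MACS 2.0.10.20120913 at a q-value of 0.01, per the file headers, with 1 library per line. Pileup (signal), fold (a ratio over background) and -log10 p and q per peak are deposited values; the headings of the last pair are damaged and were read by the usual MACS column order.

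Counts were filtered (filterByExpr), scaled by TMM and tested on all genes with edgeR 4.0.16 under R 4.3.3, with Benjamini-Hochberg adjustment. Line was the only term. The SE is the log2 fold change over the square root of F, and it understates counting error at low counts. A line with 0 counts was bounded by 3 counts per library (0.0616 CPM in P6D4 and 0.0666 in 70Z/3, from the smallest library). Counting intervals are exact (Clopper-Pearson, scipy 1.17.1). No pair of libraries was identical, and replicates differed beyond sampling noise, with chi-square over its degrees of freedom at 2.46 to 13.8. The count test was tested on simulated data. Peaks were placed on RefSeq starts of GRCm38.p6. Figures used matplotlib 3.10.9.

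Members, lists and rules were chosen with earlier results of these data known. Every member was accounted for. Values per library were given for Zbtb17, Zbtb16, Bcl6, the 6 largest rises and falls past 2-fold with at least 1 CPM, and members with lymphocyte roles. In each partner list the 2 most raised and 2 most lowered called genes, the uncalled ones and a fixed few were named. A planned order of members by level per length was left out, because no transcript length was used here. Values of some single genes are not reported here. Marker lists of other cell types than those given summed in CPM to 27.6 to 34.1 in P6D4 and 21.2 to 23.0 in 70Z/3 (myeloid), 4.29 to 5.92 and 1.18 to 1.35 (erythroid), 3.78 to 4.49 and 1.89 to 2.38 (stromal), 162 to 173 and 201 to 206 (mature B and plasma cell) and 155 to 173 and 10.7 to 11.6 (mature T).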

Additional observations from a re-analysis of the deposited data

How the results depend on the processing

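The RNA fit had 12 alternatives: DESeq2 1.42.0, its size factors, upper quartile scaling, 2 other filters, the replicate block and each library left out. Of the 41 members, 36 kept direction and side of the threshold in each alternative that tested them; Hic1 and Zbtb42 were tested in 11, since the filter of at least 1 CPM in 3 libraries drops them. Zbtb17 stayed higher in all 12, at 0.12 to 0.20 (adjusted p 0.000326 to 0.0271). Zbtb40 lost its call with upper quartile scaling (-0.09, adjusted p = 0.0804) and without P6D4 replicate 2 (-0.11, 0.0614), Zbtb6 with upper quartile scaling (-0.09, 0.0808) and Zbtb37 without 70Z/3 replicate 3 (0.15, 0.0554). Upper quartile scaling moved the median of all genes to 0.06. The cause of the lost calls was not tested. The uncalled Zbtb24 turned sign with upper quartile scaling (0.04) and ranged from -0.054 to 0.048 with a library left out, turning sign without P6D4 replicate 1 and without 70Z/3 replicate 2 (0.004). Zbtb5 ranged from -0.01, without 70Z/3 replicate 2, to 0.074. Zbtb42 passed 2-fold without P6D4 replicate 1 (1.51, adjusted p = 0.0284, edgeR). Upper quartile scaling called 2 relatives with other symbols higher in place of 1. The same-numbered libraries did not deviate together (r -0.16, -0.14 and 0.04), and pairs of other numbers ranged from -0.13 to 0.21. With 3 libraries per line, these values cannot show whether the numbers mark a pairing. The replicate block gave 18 members higher and 18 lower.

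Miz1 counts at starts were 1 in P6D4 and 2 in 70Z/3 with a window of 5 kb. In 70Z/3 the count was 0 with 500 bp, with -log10 q of at least 5, and with either gene end for all genes, an alternative added after seeing the data. The order of members by level per length was not run.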
